A study of Rattus norvegicus with 6 samples.

Results

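Hypoxia-inducible factors (HIF) and the genes they act on were followed in RNA from the inner medulla (IM) tip of control and diabetic rats. The 10 genes were taken by name from the table of normalized counts: the alpha subunits Hif1a and Epas1, the prolyl hydroxylases Egln1 and Egln3, and the targets Vegfa, Adm, Bnip3, Car9, Ankrd37 and Ndrg1. All 10 had a row of their own among 27321 features, and all 10 reached the minimum mean of 5 normalized counts over the 6 libraries. The animals were male Sprague-Dawley rats of 3 months. Control rats (n = 3) had vehicle injected into the tail vein, and STZ rats (n = 3) streptozotocin at 62.5 mg/kg, a toxin of the insulin-producing beta cells. The IM tip, which is the inner end of the medulla, was dissected 15 days later, so each library mixes RNA from all the cell types of that tissue.

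A HIF is a pair of an alpha subunit and the partner Arnt that binds DNA and raises transcription of genes for blood vessel growth, glycolysis and survival at low oxygen. While oxygen is present, prolyl hydroxylases mark the alpha subunit for ubiquitination by the Vhl complex, so much of the control lies on the protein and not on the transcript. The inner medulla is among the least oxygenated parts of the kidney, because its blood flow is low and oxygen passes between the descending and ascending vasa recta.

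Reads on features numbered 4657450, 5575171 and 3412311 in the control libraries and 5014659, 4475648 and 3963074 in the STZ libraries, values of a group being given throughout in the order of its replicates 1, 2 and 3. A normalized count is the number of reads divided by the library's DESeq size factor, and 1 read was worth between 0.763 and 1.11 normalized counts. It is not divided by transcript length, so levels are compared between libraries and not between genes. As background, 835 olfactory receptor genes had a 95th percentile that ran from 1.86 (STZ replicate 1) to 10.02 (control replicate 3) normalized counts. Every control library ran on lane 3, while lanes 7, 6 and 8 held 1 STZ library each. Lane and condition therefore cannot be told apart. Transcripts of the collecting duct and thin limb were abundant, with 2137 to 7413 normalized counts of the water channel Aqp2 and 187354 to 261675 of the aldose reductase Akr1b1. Umod, a marker of the thick ascending limb, which lies outside the IM tip, had 281, 557 and 941 normalized counts in control rats against 75.2, 84.1 and 50.2 in STZ rats. Of the same list, Egf and Slc12a1 were also lower in every STZ library than in every control library. Cldn10, the most abundant, overlapped, with 1812.5, 1309 and 1559 normalized counts in control rats against 2200, 2030 and 1388 in STZ rats. In tissue RNA, fewer cells of a type and less RNA per cell cannot be told apart.

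By limma, 0 of the 10 genes had an adjusted p under 0.05 between control and STZ rats, against 283 of all 13486 features tested, or 2.1%. At an unadjusted p under 0.05 there were 4 of the 10, Vegfa, Ankrd37, Egln3 and Egln1, all with higher means in STZ rats, against 1988 of all features. On whole reads edgeR called 0 of the 10 and DESeq2 1, which was Vegfa, beside 287 and 597 of all features, with 3 of the 10 left without an adjusted p by DESeq2. For 2 genes, Egln3 and Ankrd37, each STZ value exceeded each control value. Among all features tested this held for 10.1%, and 20.3% had groups that did not overlap in either direction. The log2 fold change, always STZ over control on the scale of log2(normalized count + 1), was positive for 8 of the 10 with a median of 0.33, and for 6814 of all features with a median of 0.01. Under equal library totals and under quantile normalization it was also positive for 8 of the 10. The median was 0.60 without STZ replicate 2, and 0.58 for the 7 of the 10 with a mean of at least 20. It was 0.29 without STZ replicate 1, and 0.32 without control replicate 2, where 7 of the 10 were positive. The 283 calls moved to 185 and 104 without control replicates 1 and 2, and to 145, 86 and 163 without STZ replicates 1, 2 and 3.

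**Figure D1:**
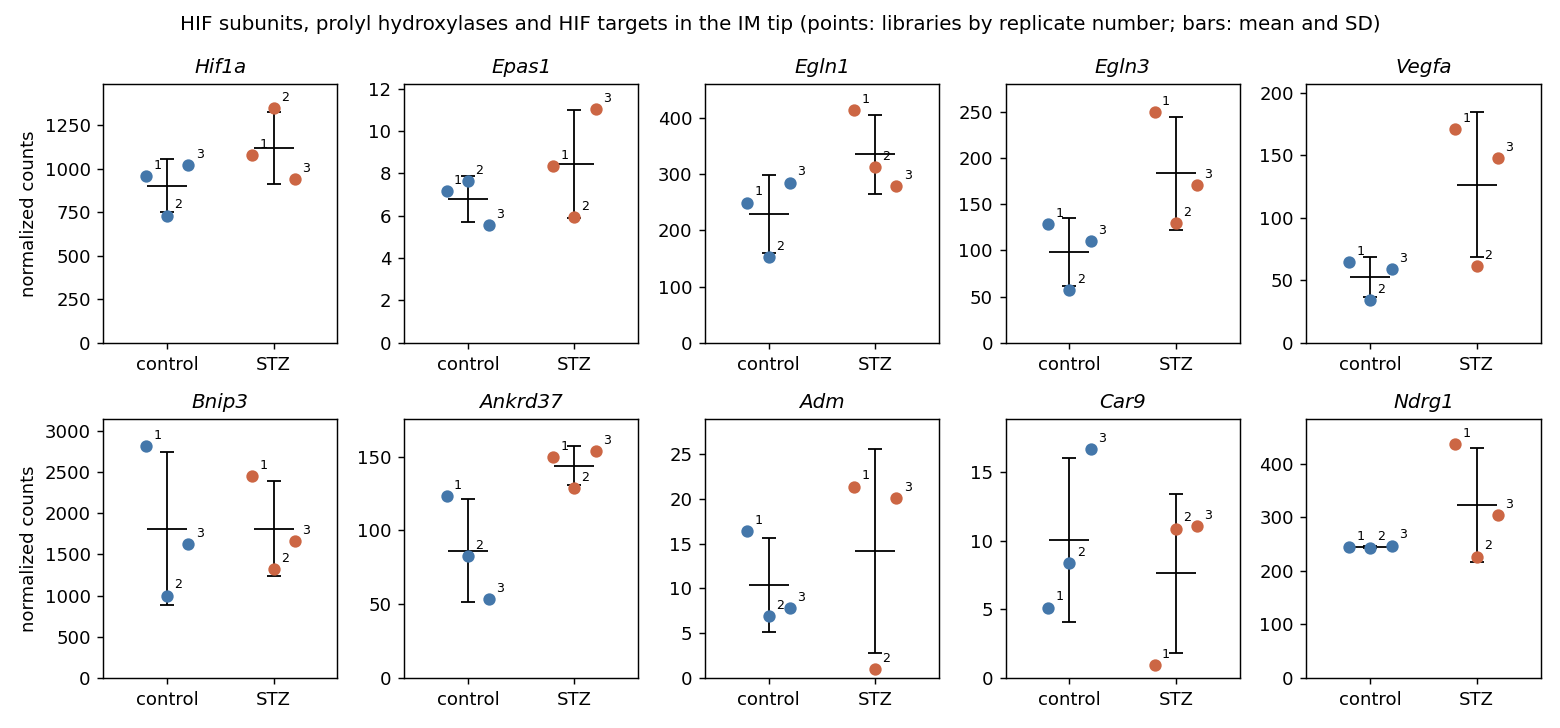
Normalized counts of the 10 genes (vertical axes, linear and starting at 0) in 3 control and 3 STZ libraries, with each library's replicate number beside its point and bars for the mean and SD. The STZ points lie above the control points for Egln3 and Ankrd37, while Hif1a, Bnip3 and Car9 overlap between the groups.

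Hif1a encodes the alpha subunit found in most cell types, and lay on chromosome 6 of rn4 from 96419023 to 96463891. It had 959.6, 731 and 1021 normalized counts in control rats against 1078, 1347 and 941 in STZ rats. The highest value was that of STZ replicate 2 and the lowest that of control replicate 2, and the groups overlapped. The means were 904 ± 153 and 1122 ± 207 (± SD, n = 3 per group), with a log2 fold change of 0.31 (SE 0.21, limma adjusted p = 0.564). It was 0.16 without control replicate 2 and 0.17 without STZ replicate 2.

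Epas1 encodes the other alpha subunit, known from endothelial and interstitial cells of the kidney, and lay on chromosome 6 from 10245064 to 10297215. Its normalized counts were 7.18, 7.63 and 5.57 in control rats against 8.36, 5.93 and 11.04 in STZ rats, which rest on 5 to 11 reads each. Only 4 of the 6 values exceeded the olfactory receptor background of their library. The log2 fold change of 0.25 had an SE of 0.51 (adjusted p = 0.911 by limma), so a change of moderate size was not detectable at this depth. It was 0.06 without STZ replicate 3, 0.46 without STZ replicate 2 and 0.13 without control replicate 3.

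Of 11 genes listed as HIF subunits and coactivators, 8 were tested and 0 passed by limma, edgeR or DESeq2, with 1 at an unadjusted p under 0.05, as had 1988 of all 13486 features. Log2 fold changes were positive for 4 and negative for 4, with a median of 0.07 that ran from −0.0081 without control replicate 3 to 0.15 without control replicate 1, and was −0.05 for the 7 genes with a mean of at least 20 and 0.19 for all 9 with a row of their own. Cited2, which competes with the alpha subunits for the coactivators Ep300 and Crebbp, had 492, 399 and 401 normalized counts in control and 480.1, 382 and 310.2 in STZ rats (log2 fold change −0.16, limma adjusted p = 0.841, and −0.06, −0.32 and −0.0012 without control replicate 1, STZ replicate 1 and STZ replicate 3). Groups did not overlap for 2 of the 8 (20.3% of all features), Arntl and Ncoa1, which are singled out here after their values were seen. Arntl, best known as a clock factor, had 70.7, 113 and 98.0 normalized counts in control and 49.2, 65.3 and 62.2 in STZ rats (log2 fold change −0.65, limma adjusted p = 0.227). The coactivator Ncoa1 had 105, 116 and 138 against 142, 163 and 172 normalized counts (log2 fold change 0.41, limma adjusted p = 0.371). Ep300 and Cited4 were not analysed here, and Hif3a, with 0 to 5.93 normalized counts, did not reach the minimum mean.

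Egln1 encodes the main hydroxylase that marks HIF alpha subunits for degradation, and lay on chromosome 19 from 55080745 to 55119393. It had 249, 152 and 285 normalized counts in control rats against 413, 313 and 279 in STZ rats. STZ replicate 3 lay just under control replicate 3, so the groups overlapped at that point, and control replicate 2 was the lowest of all. The means were 229 ± 68.9 and 335 ± 69.8 (± SD, n = 3 per group), a log2 fold change of 0.58 (SE 0.26, limma adjusted p = 0.324). Without control replicate 2 it was 0.31.

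Egln3 encodes a hydroxylase whose own transcription is raised by HIF, and lay on chromosome 6 from 74451037 to 74476506. Its normalized counts were 128, 57.2 and 110.2 in control rats against 249.8, 129.6 and 171 in STZ rats. The lowest STZ value, that of replicate 2, lay just above the highest control value, so the groups were separate by a narrow gap (p = 0.1 by a two-sided exact permutation test, which with 3 rats per group cannot give less). Group means were 98.5 ± 36.9 and 183 ± 61.1 (± SD, n = 3 per group), a ratio of 1.86. On the log2 scale this was 0.92 (SE 0.32, limma adjusted p = 0.198), and 0.57 without control replicate 2.

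Of 16 genes listed for oxygen sensing and HIF degradation, 13 were tested and 0 passed by limma, edgeR or DESeq2, with Egln1 and Egln3 at an unadjusted p under 0.05. Of all 13486 features 283, 287 and 597 passed by these tools and 1988 were at an unadjusted p under 0.05. Positive log2 fold changes numbered 6 and negative ones 7, with a median of −0.01, but without control replicate 1 there were 10 and 3 with a median of 0.15. The median was 0.08 without STZ replicate 3 (7 and 6), 0.02 without STZ replicate 2 (7 and 6), −0.04 without STZ replicate 1 and −0.07 without control replicate 3 (4 and 8). Tceb2, the elongin B of the Vhl ubiquitin ligase, had 3714, 2976 and 2719 normalized counts in control and 2344, 2641 and 2148 in STZ rats (log2 fold change −0.39, limma adjusted p = 0.411). All STZ values of Tceb2 lay below all control values. The same held for Vhl itself, named after its values were seen, with 559.7, 441 and 408 against 384, 403 and 297 normalized counts (log2 fold change −0.38, limma adjusted p = 0.433, and −0.24 without control replicate 1 or STZ replicate 3). Gnb2l1, a scaffold linked to oxygen-independent loss of the alpha subunit, had a log2 fold change of −0.05 (adjusted p = 0.965), which became 0.13 without control replicate 1. Egln2 was counted together with Cyp2t1 in a merged feature, so no value is given for it.

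Vegfa encodes the main growth factor for blood vessels, and lay on chromosome 9 from 10520729 to 10536068. It had 64.6, 34.3 and 59.0 normalized counts in control rats against 171, 61.3 and 148 in STZ rats. STZ replicates 1 and 3 exceeded every control library, whereas STZ replicate 2 lay between control replicates 1 and 3. Group means were 52.6 ± 16.1 and 127 ± 57.7 (± SD, n = 3 per group), a ratio of 2.40. The log2 fold change of 1.17 (SE 0.38) was the highest of the 10 genes, with an adjusted p of 0.155 by limma and 0.115 by edgeR. With DESeq2 on whole reads it was 1.27 and the adjusted p was 0.0292, while the adjusted p ran from 0.0292 to 0.45 over 17 alternatives, which here and in later ranges are those other than the replicate block. Without STZ replicate 2 the log2 fold change was 1.63 and the adjusted p 0.0506.

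Adm encodes adrenomedullin, a peptide that widens blood vessels, and lay on chromosome 1 from 168380254 to 168382426. Its normalized counts were 16.4, 6.86 and 7.79 in control rats against 21.4, 0.989 and 20.1 in STZ rats. STZ replicates 1 and 3 were the highest of the 6, but STZ replicate 2 held a single read, the lowest. The means were 10.4 ± 5.26 and 14.1 ± 11.4 (± SD, n = 3 per group), while the log2 fold change was −0.12 (SE 0.85, limma adjusted p = 0.975). Its sign turned to positive without STZ replicate 2 (1.03) or control replicate 1 (0.24), with a pseudocount of 5 (0.10), and with edgeR (0.48) or DESeq2 (0.46), so no direction can be given.

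Of 21 genes listed as vascular and secreted targets, 13 were tested and 2 passed by limma, Angpt2 among them. Both were lower in STZ rats, where 0.927% of all features were called in that direction, and 0 were called higher, against 1.17%. Angpt2 encodes a ligand of the endothelial receptor Tek and lay, unlike Vegfa, far lower in every STZ library. It had 3713, 4619 and 3511 normalized counts in control rats against 936, 1142 and 976 in STZ rats. This was a log2 fold change of −1.95 (SE 0.19, limma adjusted p = 0.00072), and it passed under all of 17 alternatives, with values from −2.03 to −1.83.

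The median log2 fold change of the 13 vascular and secreted genes was −0.47, with 3 positive and 10 negative, Adm among the negative although its sign turned. The median was −0.29 without control replicate 1 (6 positive, 8 negative) and −0.25 without STZ replicate 2, and edgeR and DESeq2 gave 5 positive and 8 negative. It was −0.26 for the 17 genes with a mean of at least 1 (6 positive, 11 negative) and −0.12 for all 19 with a row of their own (8 positive, 11 negative). Pgf, a relative of Vegfa, had 851, 865 and 471 normalized counts in control and 566, 521 and 444 in STZ rats (log2 fold change −0.47, limma adjusted p = 0.427, and −0.76 without control replicate 3). Angptl4, an inhibitor of lipoprotein lipase, had 293, 281 and 267 against 335, 440.1 and 310.2 (log2 fold change 0.35, limma adjusted p = 0.443, and 0.20 without STZ replicate 2). Flt1, a receptor for Vegfa and Pgf, is named after its values were seen, and had 17.4, 23.6 and 37.8 normalized counts in control and 37.1, 51.4 and 62.2 in STZ rats (log2 fold change 0.95, limma adjusted p = 0.189). STZ replicate 1 lay just under control replicate 3, so the groups of Flt1 overlapped. Kdr and Cxcl12 were not analysed here, and Epo, with 1 read in STZ replicate 1 and none elsewhere, was among 6 genes under the minimum mean.

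Markers of endothelial cells moved in both directions between the groups. Of 10 listed, 8 were tested. By limma at an adjusted p under 0.05, Vwf was higher and Emcn and Plvap were lower in STZ rats. Among all features 1.17% were called higher and 0.927% lower. Not called were Pecam1, Tie1 and Esam (log2 fold changes 0.04, 0.55 and 0.18) and Cdh5 and Tek (−0.56 and −0.61). The summed level of the 8 markers was 10013, 8078 and 8437 normalized counts in control rats against 5328, 5326 and 4791 in STZ rats. Emcn was the most abundant of them, and none of the 8 was at or under 3 reads in all libraries. Their part in the values of Angpt2 was not tested.

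Bnip3 encodes a receptor for the removal of mitochondria by autophagy, and lay on chromosome 1 from 198683008 to 198700075. It had 2817, 998 and 1626 normalized counts in control rats against 2453, 1319 and 1665 in STZ rats. Control libraries held both the highest and the lowest value, and replicate 1 was the highest of either group. The means of 1814 ± 924 and 1813 ± 581 (± SD, n = 3 per group) differed by far less than the spread between replicates. A log2 fold change of 0.08 (SE 0.35, limma adjusted p = 0.966) turned negative without control replicate 2 (−0.29) or STZ replicate 1 (−0.16) and with DESeq2 (−0.00049).

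Of 11 genes listed as mitochondrial, autophagy and cell death targets, 9 were tested and 0 passed by limma or edgeR, while 4 were at an unadjusted p under 0.05 and DESeq2 called 3, against 1988 and 597 of all 13486 features. Log2 fold changes were positive for 8 of the 9, with a median of 0.08. Without STZ replicate 1 they were positive for 4 with a median of −0.01, and without control replicate 1 for 8 with a median of 0.46. The median was 0.19 without control replicate 2 (6 positive, 3 negative) and 0.06 without control replicate 3 (5 positive, 4 negative). It was 0.28 and 0.16 without STZ replicate 2 and STZ replicate 3. For the 7 genes with a mean of at least 20 it was 0.55 (7 positive). For all 10 with a row of their own it was 0.32 (9 positive). Bnip3l, a relative of Bnip3 with the same kind of function, had 1869.9, 1669.7 and 1719.7 normalized counts in control and 2878, 2536 and 2311 in STZ rats. All STZ values of Bnip3l exceeded all control values (log2 fold change 0.55, limma adjusted p = 0.169, with a range from 0.0294 to 0.454 over 17 alternatives). The 3 other tested genes with all STZ values above the control values were Cox4i2, Pdk1 and Ero1l, making 4 of 9 beside 10.1% of all features, and are named after their values were seen.

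Cox4i2, an isoform of a cytochrome oxidase subunit, had 119, 54.9 and 98.0 normalized counts in control and 326, 141 and 233 in STZ rats. Its log2 fold change was 1.35 (SE 0.34, limma adjusted p = 0.0732), with adjusted p-values from 0.00386 to 0.267 over the 17 alternatives other than the block, 4 of them under 0.05. Pdk1, a kinase that keeps pyruvate from the citric acid cycle, had 9.23, 9.92 and 18.9 against 34.4, 20.8 and 38.1 normalized counts (log2 fold change 1.25, limma adjusted p = 0.139). In Ero1l, an oxidase of protein folding, the values were 28.7, 20.6 and 31.2 against 94.7, 35.6 and 70.3 (log2 fold change 1.199, limma adjusted p = 0.121, and from 0.0386 to 0.371 over 17 alternatives). Like Vegfa, these last genes had their lowest STZ value in replicate 2.

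Car9 encodes a carbonic anhydrase of the cell surface, and lay on chromosome 5 from 59986410 to 59993015. Its normalized counts were 5.13, 8.39 and 16.7 in control rats against 0.929, 10.9 and 11.04 in STZ rats. STZ replicate 1 held 1 read, and the highest value was that of control replicate 3. The log2 fold change of −0.63 (SE 0.78, limma adjusted p = 0.824) turned to 0.25 without STZ replicate 1 and was −0.22 without control replicate 3. Of 6 genes listed as acid-base targets, 5 were tested and 0 passed by limma, edgeR or DESeq2, with 0 at an unadjusted p under 0.05, beside 1988 of all 13486 features. Car12, a further carbonic anhydrase, had 87.1, 65.6 and 40.1 against 75.2, 40.6 and 54.2 normalized counts, and a log2 fold change of −0.15 (adjusted p = 0.911) whose sign turned without control replicate 1 (0.10) or STZ replicate 2 (0.06).

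Ankrd37 encodes a small protein of ankyrin repeats whose gene is a direct HIF target, and lay on chromosome 16 from 49549526 to 49552416. It had 123, 82.4 and 53.4 normalized counts in control rats against 149, 129 and 154 in STZ rats. All 3 STZ libraries exceeded all control libraries and lay close together (p = 0.1 by the two-sided exact permutation test). The means were 86.3 ± 35.0 and 144 ± 13.4 (± SD, n = 3 per group), a log2 fold change of 0.81 (SE 0.28, limma adjusted p = 0.19). It was 0.51 without control replicate 3.

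Ndrg1 encodes a stress-induced protein linked to cell differentiation, and lay on chromosome 7 from 104302038 to 104344842. Its normalized counts were 244, 243 and 247 in control rats against 437, 227 and 304 in STZ rats. The control libraries were nearly equal, while STZ replicate 1 was high and STZ replicate 2 lay under every control library. The means were 245 ± 2.02 and 323 ± 107 (± SD, n = 3 per group), with a log2 fold change of 0.35 (SE 0.23, limma adjusted p = 0.573). Without STZ replicate 1 it was 0.10, and without STZ replicate 2 it was 0.57.

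Of 19 genes listed for transcription, chromatin and growth, 14 were tested and 0 passed by limma or edgeR, with 4 at an unadjusted p under 0.05, while DESeq2 called 1, where all 13486 features gave 1988 and 597. That gene was Klf10, a repressor induced by growth factors, with 718, 441 and 979.5 normalized counts in control and 186, 216 and 526 in STZ rats. STZ replicate 3 lay above control replicate 2, and the log2 fold change was −1.29 (SE 0.38, limma adjusted p = 0.126). The adjusted p was 0.0257 by DESeq2 and 0.0343 without STZ replicate 3, over a range from 0.0257 to 0.367 in the 17 alternatives other than the block. The antiproliferative gene Btg1 had 309.6, 239.5 and 307 normalized counts in control and 436, 417 and 340.3 in STZ rats (log2 fold change 0.48, limma adjusted p = 0.264). The list's median was 0.18, with 9 positive and 5 negative, and 0.09, 0.10 and 0.11 without control replicate 2, STZ replicate 1 and STZ replicate 3.

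Matrix targets gave the third call among the lists, since 1 of 6 tested genes passed, beside 2.1% of all features and 0.927% lower in STZ rats. It was Loxl4, an enzyme that crosslinks collagen. It had 339, 433 and 384 normalized counts in control rats against 52.9, 72.2 and 76.3 in STZ rats. Each STZ library was far below each control library, and the log2 fold change was −2.51 (SE 0.21, limma adjusted p = 0.000175), from −2.61 to −2.35 over 17 alternatives that it passed throughout. P4ha2, a prolyl hydroxylase of collagen, had 981, 986 and 978 against 929, 726 and 716 normalized counts, without overlap (log2 fold change −0.32, limma adjusted p = 0.454). Anxa2, a calcium-dependent membrane protein, had a log2 fold change of −0.00041, from −0.12 to 0.15 over 17 alternatives.

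Among the iron targets 6 of 10 were tested and 0 passed by limma, edgeR or DESeq2, with 1 at an unadjusted p under 0.05, Slc40a1, beside 2.1% of all features called and 1988 of 13486 at that p. Slc40a1, the exporter of iron, is named after its values were seen and had 322, 302 and 273 normalized counts in control and 240.5, 224 and 188 in STZ rats (log2 fold change −0.46, limma adjusted p = 0.261). Fth1, the heavy chain of ferritin, had 15157, 19219 and 13189 against 33750, 19086 and 16461 normalized counts (log2 fold change 0.49, limma adjusted p = 0.549), the highest value being that of STZ replicate 1. Without that library the log2 fold change of Fth1 was 0.18, and under quantile normalization 0.20. The iron carrier Tf had a log2 fold change of 0.07 (adjusted p = 0.925), which was −0.0064 without STZ replicate 2.

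Of 22 glycolytic targets 19 were tested and 0 passed by limma or edgeR, with 4 at an unadjusted p under 0.05, while DESeq2 called 3, beside 1988 and 597 of all 13486 features. Positive log2 fold changes numbered 15 of the 19, with a median of 0.25, and for 13 with a median of 0.05 without STZ replicate 1. The median was 0.14 without STZ replicate 3 and 0.45 without STZ replicate 2. Aldoa, the aldolase of this pathway, had 11824, 12914 and 10668 normalized counts in control and 23669, 19939 and 14545 in STZ rats. The groups of Aldoa did not overlap (log2 fold change 0.69, limma adjusted p = 0.233, and from 0.0166 to 0.70 over 17 alternatives). Ldha, which makes lactate, had 13311, 10937 and 9134 against 16467, 12483 and 15125 normalized counts, with overlap (log2 fold change 0.41, limma adjusted p = 0.51).

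The genes of 1 pathway stood on both sides of 0. Pfkl, a phosphofructokinase named after its values were seen, had 69.7, 87.0 and 119 normalized counts in control and 181, 153 and 267 in STZ rats (log2 fold change 1.11, limma adjusted p = 0.0595, and from 0.00749 to 0.218 over 17 alternatives). Its relative Pfkp, named likewise, had 656, 601 and 511 against 461, 383 and 364 (log2 fold change −0.55, limma adjusted p = 0.179, and from 0.0482 to 0.46 over 17 alternatives), with all STZ values below the control values. Eno1, the enolase, also chosen on its values, had 17288, 16005 and 11871 against 10837, 8291 and 10330 normalized counts (log2 fold change −0.61, limma adjusted p = 0.277, and from 0.0342 to 0.738 over 17 alternatives, 2 of them under 0.05).

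**Figure D2:**
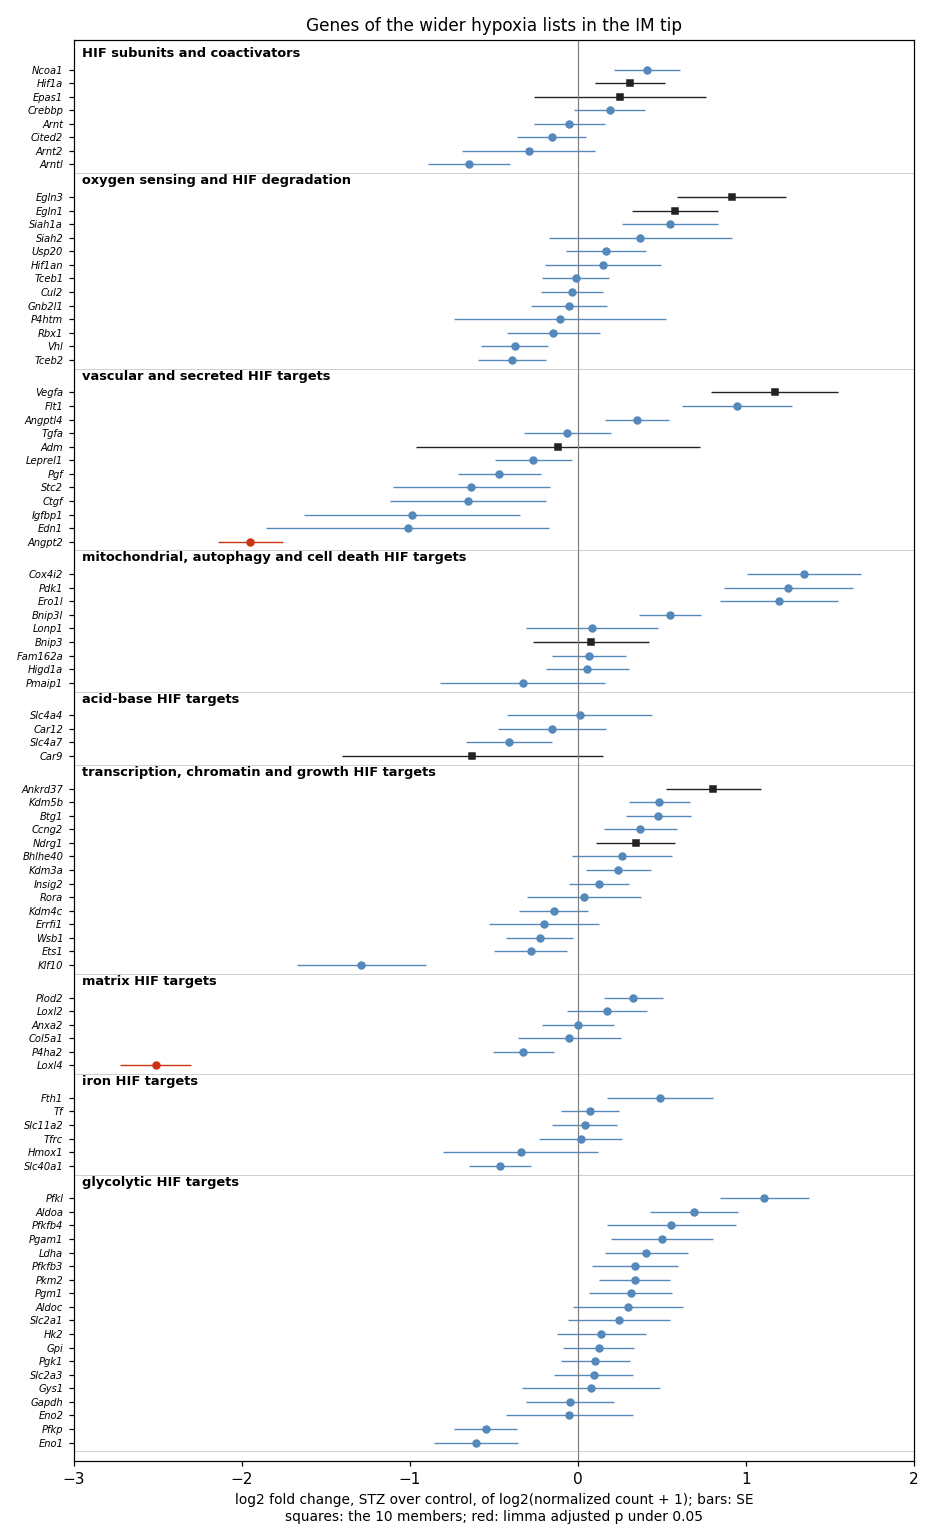
Log2 fold change of the tested genes of the 9 lists that are reported here (horizontal axis, STZ over control on the scale of log2(normalized count + 1), bars for the SE), with squares for the 10 genes and red for an adjusted p under 0.05 by limma. Angpt2 (−1.95) and Loxl4 (−2.51) are the red points, both on the negative side, and the squares run from −0.63 for Car9 to 1.17 for Vegfa.

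Over all lists, with each gene counted once, 93 of 126 genes were tested, 53 had positive and 40 negative log2 fold changes, and the median was 0.07. Without STZ replicate 1 the median was 0.0039 with 47 positive, and without control replicate 1 it was 0.16 with 62 of 94 positive. It was also 0.14 without STZ replicate 2, 0.05 without control replicate 2 and 0.03 without control replicate 3. The 3 calls, all lower in STZ rats, stand beside 2.1% called among all features. At an unadjusted p under 0.05 there were 13 higher and 8 lower, edgeR called 3 and DESeq2 11, of which 6 were higher and 5 lower. Of all 13486 features, 1988 were at an unadjusted p under 0.05, edgeR called 287 and DESeq2 597. Groups did not overlap for 28 genes, 15 above and 13 below, which among all features held for 20.3%, 1358 above and 1386 below. A further 13 listed genes were not analysed here, 9 were counted in merged features and 11 lay under the minimum mean.

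Within each group, replicate 2 was often the low library for the 10 genes. Control replicate 2 held the lowest control value of 7 of the 10, compared with 28.0% of all features tested, and STZ replicate 2 the lowest STZ value of 7, compared with 29.6%. STZ replicate 1 held the highest STZ value of 6 genes, compared with 38.7% of all features. Across the 6 libraries the 45 pairs of these genes had Pearson correlations of log2(normalized count + 1) between −0.80 and 0.94, with a median of 0.42, as a description of libraries that also differ by group. Egln3 with Vegfa (0.94) and Egln1 with Egln3 (0.93) were the most alike, and Car9 with Ndrg1 (−0.80) the least. Car9 rests on few reads.

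The features most alike to Hif1a, Epas1 and Vegfa over the 6 libraries were sought among 9437 features with gene symbols, where high values of r arise readily from so few libraries. For Hif1a these were Map2k7 (r = 0.98), Map3k7ip2 (0.98) and Uimc1 (0.98), a kinase and an adaptor of stress signalling and a protein of DNA repair. Without the 2 libraries farthest from the Hif1a median, control replicate 2 and STZ replicate 2, the r was 0.77, 0.91 and 0.98. Vegfa was most like Rnf103 (0.99), Ero1l (0.98) and Ptprm (0.98), and r was 0.93, 0.89 and 0.90 without STZ replicates 1 and 3. Of these Ero1l is also on the HIF lists. For Epas1 they were Trib3 (0.99), Rpesp (0.99) and Prrx2 (0.98), of which Trib3, with 4.45 to 11.04 normalized counts, is as low as Epas1 itself. The r was 0.98, 0.95 and 0.96 without control replicate 3 and STZ replicate 3.

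HIF binds a short core, ACGTG or GCGTG, and the promoters of the genes were searched for both on either strand. Windows of 300 bases, from 250 before to 50 after the start, were taken from RefSeq on GRCr8, a later build than the rn4 of the counts, and 9 of the 10 genes had one. ACGTG was found in 5 of the 9, those of Hif1a, Egln1, Bnip3, Ankrd37 and Car9, and in 19.3% of all 33469 windows. GCGTG was found in 3, those of Egln1, Bnip3 and Ankrd37, and in 29.7% of all windows. Both cores hold a CG pair and are more frequent in windows rich in G and C: among the 8777 windows with at least 60% G and C, 25.7% held ACGTG and 58.4% GCGTG. The palindrome CACGTG, which contains ACGTG on both strands and is also bound by other factors, was in the windows of Hif1a, Bnip3 and Ankrd37, each with over 60% G and C, in 6.42% of all windows and in 10.6% of those with at least 60%. No match was found in the windows of Epas1, Egln3, Adm and Vegfa, the last with 2 starts, which says only that these letters are not in these windows.

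The windows of Ankrd37, Egln1, Bnip3 and Car9 are shown because these carry the core in a hydroxylase and 3 targets, of which Ankrd37 had separate groups and the others did not. Ankrd37 held 4 matches of ACGTG counted over both strands, a pair of them in 1 CACGTG, and 1 of GCGTG. In Egln1 ACGTG began at base 3 after the start, and in Car9 the core lay on the opposite strand from base 2. Capitals mark ACGTG or GCGTG on either strand, read on the opposite strand as the reverse complement, and each window runs 5′ to 3′ on the strand of its gene. They lie at chr16:53001257-53001556 (plus strand) for Ankrd37, chr19:69804632-69804931 (minus) for Egln1, chr1:203154913-203155212 (minus) for Bnip3 and chr5:62558774-62559073 (plus) for Car9.
Ankrd37: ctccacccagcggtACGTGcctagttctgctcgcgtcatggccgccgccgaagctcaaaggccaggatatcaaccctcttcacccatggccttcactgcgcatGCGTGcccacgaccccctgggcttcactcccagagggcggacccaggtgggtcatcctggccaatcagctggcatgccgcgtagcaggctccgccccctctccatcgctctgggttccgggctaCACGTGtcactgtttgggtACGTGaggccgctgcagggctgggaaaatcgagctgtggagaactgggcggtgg
Egln1: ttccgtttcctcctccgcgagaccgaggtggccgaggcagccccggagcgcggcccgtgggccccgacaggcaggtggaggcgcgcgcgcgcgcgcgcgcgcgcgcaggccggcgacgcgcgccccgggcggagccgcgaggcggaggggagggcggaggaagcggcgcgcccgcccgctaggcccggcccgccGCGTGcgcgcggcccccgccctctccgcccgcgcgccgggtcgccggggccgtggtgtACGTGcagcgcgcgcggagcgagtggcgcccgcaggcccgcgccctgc
Bnip3: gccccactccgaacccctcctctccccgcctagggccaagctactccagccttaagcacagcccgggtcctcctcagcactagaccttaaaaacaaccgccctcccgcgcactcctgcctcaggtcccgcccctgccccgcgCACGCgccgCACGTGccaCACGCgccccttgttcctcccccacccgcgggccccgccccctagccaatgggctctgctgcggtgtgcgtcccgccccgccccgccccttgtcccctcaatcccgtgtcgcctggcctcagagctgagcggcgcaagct
Car9: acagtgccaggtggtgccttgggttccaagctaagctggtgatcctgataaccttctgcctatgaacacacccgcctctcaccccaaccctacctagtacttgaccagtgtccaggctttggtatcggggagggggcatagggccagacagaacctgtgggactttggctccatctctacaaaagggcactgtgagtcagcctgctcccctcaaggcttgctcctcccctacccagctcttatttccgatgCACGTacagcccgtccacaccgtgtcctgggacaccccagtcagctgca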

How the data were processed

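RNA from the IM tip of 3 control and 3 STZ rats had been copied with a PCR-based cDNA kit and sequenced on a HiSeq2000. Per the labels and the study's methods, the authors aligned reads to rn4 with STAR 2.3.1t, counted unique reads on Ensembl genes and normalized them with DESeq 1.16.0. The sources used here name neither the counting program nor whether it used strand. The deposited signal, called a normalized count here, is the count of a feature over 1 size factor per library, made by the authors. All values (100%) were whole multiples of 1 step per library within 0.01, which gave whole reads for the alternative count tests. PCR copies are not independent molecules, so read numbers and the floor of 3 reads do not capture all the error. The p-values measure the spread between libraries, which holds library preparation as well as differences between rats. Among STZ libraries it also holds lane, while the control libraries shared 1 lane.

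limma 3.58.1 (R 4.3.3) with an intensity trend was fitted to log2(normalized count + 1) for the 13486 features that reached a mean of 5, over all of which p-values were adjusted by Benjamini-Hochberg. The added 1 pulls low values together, yet 1 library with a single read can still weigh heavily on a mean of logs. The log2 fold change of Car9 was −0.63 here but −0.40 by edgeR and −0.41 by DESeq2, and that of Adm changed sign. Alternatives changed 1 choice each: the pseudocount (0.5 or 5), the minimum mean (1, 20 or none), the scaling (equal totals or quantile normalization), the moderation (robust, or no trend), edgeR 4.0.16 and DESeq2 1.42.0 on whole reads, the replicate block, and each library left out, with the filter on the mean of the libraries kept. Exact permutation tests were two-sided.

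The 10 genes, the 9 HIF lists and the cell type markers were chosen with earlier results of these data known. Named were the 10 genes, each list's calls with its 2 tested genes of highest mean that were not called, and the 3 genes most correlated with Hif1a, Epas1 and the gene of smallest p; others are marked as named after their values were seen. Some genes are in the counts but are not reported here. Promoters were RefSeq's, and figures were drawn with Python 3.11.15 and matplotlib 3.10.9.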

Additional observations from a re-analysis of the deposited data

How the results depend on the processing

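Of the 10 genes, none passed under any alternative other than DESeq2 on whole reads, which called 1 (Vegfa), and the replicate block, which called 2. The wider lists, with 3 calls, had 2 to 4 with a library left out, but 5 (2 higher, 3 lower) at a minimum mean of 20, 6 (2 and 4) without a filter, 7 (2 and 5) under quantile normalization and 11 (6 and 5) with DESeq2; fewer or more features tested change the adjustment, and the cause was otherwise not tested. All features, with 283 calls, had 522 under quantile normalization, 31 without the trend, 597 with DESeq2, and from 86 to 341 with a library left out (185 without control replicate 1). No scaling moved the median log2 fold change of all features by as much as 0.1.

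Control and STZ rats share replicate numbers but are different animals. Between libraries of the same number, deviations from group means had correlations of r = 0.39, −0.06 and 0.32 for replicates 1, 2 and 3 (9315 features). Those of replicates 1 and 3 were the highest of all pairs, whereas control replicate 2 correlated best with STZ replicate 1 (0.11). The olfactory receptor 95th percentile rose with the number in both groups (2.05, 6.33 and 10.02 in control, 1.86, 5.93 and 9.03 in STZ libraries). The main fit left the numbers out, and whether libraries of a number were processed together was not tested. With the replicate block limma called 561 features, 9 of the wider lists and 2 of the 10 genes, Egln3 (adjusted p = 0.0284) and Vegfa (0.0171).

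Signs turned as follows, for a cause that was not tested. With a library left out Bnip3 ran from −0.29 to 0.46 (−0.16 without STZ replicate 1), and it was −0.00049 with DESeq2. Adm ran from −0.72 to 1.03 (0.24 without control replicate 1), and was 0.10 with a pseudocount of 5, 0.48 with edgeR and 0.46 with DESeq2. The same ranges were −1.07 to 0.25 for Car9, −0.26 to 0.13 for Gnb2l1, −0.45 to 0.10 (0.06 without STZ replicate 2) for Car12, −0.0064 to 0.16 for Tf and −0.12 to 0.15 for Anxa2 (0.0090 and 0.05 without STZ replicates 2 and 3), and Anxa2 was 0.020 under quantile normalization. Of the other single-gene comparisons, 774 kept direction and side of the threshold, 25 gained a call and 6 lost it. Epas1, Adm and Car9 rest on at most 23 reads a library, which limits what could be detected, and they have no value at a minimum mean of 20. Lane and condition cannot be told apart.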

Other observations

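Cell type markers gave the following counts of calls by limma between control and STZ rats, with the part of any cell type in the values of the HIF genes not tested. Of the tested markers, 4 of 7 for intercalated cells were lower, 2 of 4 for the thick ascending limb and 1 of 5 for the proximal tubule, beside 0.927% of all features. The summed intercalated markers were 7557, 4294 and 4616 normalized counts in control rats against 7104, 6852 and 5989 in STZ rats. Car2, the most abundant of them and not called (limma adjusted p = 0.147), was higher in each STZ library than in each control library. Of 3 red cell markers the 1 called, Slc4a1, is also 1 of the 4 intercalated calls, and the globins Hba-a2 and Hbb were not called. Higher were 3 of 9 for pericytes and interstitial cells and 2 of 5 for the urothelium, beside 1.17% of all features. The summed pericyte and interstitial markers were 9511, 7910 and 9364 normalized counts in control rats against 11715, 8830 and 5554 in STZ rats, and Dcn, the most abundant of them, had a log2 fold change of −0.37 and was not called. Principal cells (0 of 7), thin limb (0 of 5), leukocytes (0 of 9) and podocytes (0 of 1) had no calls, and the podocyte gene Synpo was at or under 3 reads in all 6 libraries. The summed thick ascending limb markers, led by Cldn10, were 2911, 2680 and 3445 normalized counts in control rats against 2797, 2394 and 1598 in STZ rats. The summed urothelial markers, led by Upk3a, were 112, 85.4 and 132 in control rats against 440.1, 517 and 475 in STZ rats.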
